A study of Mus musculus with 12 samples.

Results

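The genes described here encode glucose and lactate transporters and the enzymes of glycolysis, the pentose phosphate pathway, the entry of pyruvate into mitochondria and the tricarboxylic acid (TCA) cycle. They form a list of 40 symbols out of 25919 gene rows, and all 40 have a row. The list was chosen by pathway membership, with earlier results of these data known. The study sequenced poly(A) RNA of cells from the liver of C57BL/6 mice, which the labels give as 7 weeks old, and its 12 libraries fall into 4 groups. Kupffer cells, macrophages that live in the liver sinusoids, at day 0 (2 libraries) were compared here with cells whose cell type label is CD40, a receptor of antigen-presenting cells, at day 2 (4 libraries). The labels do not say what the days are counted from, which treatment was given, how cells were isolated (the extraction text speaks of RNA from liver), or whether libraries came from separate animals. The p-values therefore reflect how these libraries vary among themselves, possibly for technical reasons alone. The other 2 groups, Kupffer cells at day 7 and cells labelled Ly6C CD40 neg at day 2, were not read by gene. The rows follow the falling counts of the first Kupffer day 0 library, yet the first library of each of these 2 groups also rises from one row to the next at 1 row alone, so their values appear to have been sorted apart from the gene names. Label and day differ together between the groups compared, and their effects cannot be told apart.

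Glycolysis splits glucose into pyruvate in the cytosol with a small yield of ATP, and lactate dehydrogenase can turn that pyruvate into lactate. The pentose phosphate pathway branches off at glucose 6-phosphate and supplies NADPH and ribose. Pyruvate dehydrogenase feeds the TCA cycle, whose reduced cofactors drive respiration. In macrophages and dendritic cells, activation by microbial signals is known to be followed by higher glycolytic flux, whereas resting tissue macrophages are described as more reliant on respiration.

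Total counts were 1612435 and 688498 in the Kupffer day 0 libraries and 725683 to 2271228 in the CD40 day 2 libraries. The columns of a group carry no replicate numbers and are called a to d in table order. The label Kupffer was checked against 14 marker genes, which took 0.602% and 0.517% of counts in Kupffer day 0 and 0.0435% to 0.106% in CD40 day 2, with none at 0 in either group. In Kupffer day 0 the 12 markers of liver sinusoidal endothelial cells took more (2.19% and 2.32%, against 0.0708% to 0.124% in CD40 day 2). The 11 classical monocyte markers took 0.19% and 0.18% in Kupffer day 0 and 1.7% to 2.42% in CD40 day 2. The 7 conventional dendritic cell markers took 0.0165% and 0.0209% and 0.0615% to 0.1%. Of the 6 tested, Naaa and Batf3 were called higher, Zbtb46 was called lower, and 3 were not called. The 15 hepatocyte markers took 0.0458% and 0.121% and 0.00867% to 0.0189%, with G6pc at 0 in CD40 day 2, and the 10 stellate cell markers 0.166% and 0.141% and 0.00289% to 0.0115%, with Col1a1 at 0 there. These shares differ between the groups in the same way for every result below, and their part in the results was not tested. In bulk libraries, fewer cells of a type and less RNA per cell cannot be told apart.

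Along the pathways, 17 of 20 tested genes of glucose uptake, glycolysis and lactate export were higher in CD40 day 2, as were 4 of 5 of the pentose phosphate pathway, 3 of 3 of pyruvate entry and 3 of 9 of the TCA cycle. Of all 40 members, 27 were higher and 1, Ldhb, was lower, 9 did not pass the test and 3 (Slc2a3, Gapdh and Pgd) had too few counts to be tested. Over all 9852 genes tested, 53.4% were called (adjusted p under 0.05, edgeR quasi-likelihood test), 23.2% higher and 30.2% lower. Without Kupffer day 0 a these shares were 14.4% and 18.4% of 9760 genes, with 24 members higher and 1 lower. The median log2 fold change was 2.53 over the 20 tested transport and glycolysis genes, 1.61 over 5 pentose phosphate genes and 0.36 over 9 TCA genes, against -0.10 over all genes tested. A filter on low counts asked for about 7.16 CPM in at least 2 libraries, and 7 members (Hk2, Pfkm, Pfkfb4, Aldoc, Pgam1, Eno1 and Rpia) met it through CD40 day 2 alone. Among the 30 members that Kupffer day 0 alone would have passed, 22 were higher and 1 lower, with a median of 1.49, and of the 14 transport and glycolysis genes among them 12 were higher and 1 lower. Changes are log2 ratios of CD40 day 2 over Kupffer day 0, and levels are in CPM, each count divided by its library's total after TMM adjustment. CPM is not scaled by transcript length, so levels were compared between groups and not between genes.

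**Figure D1:**
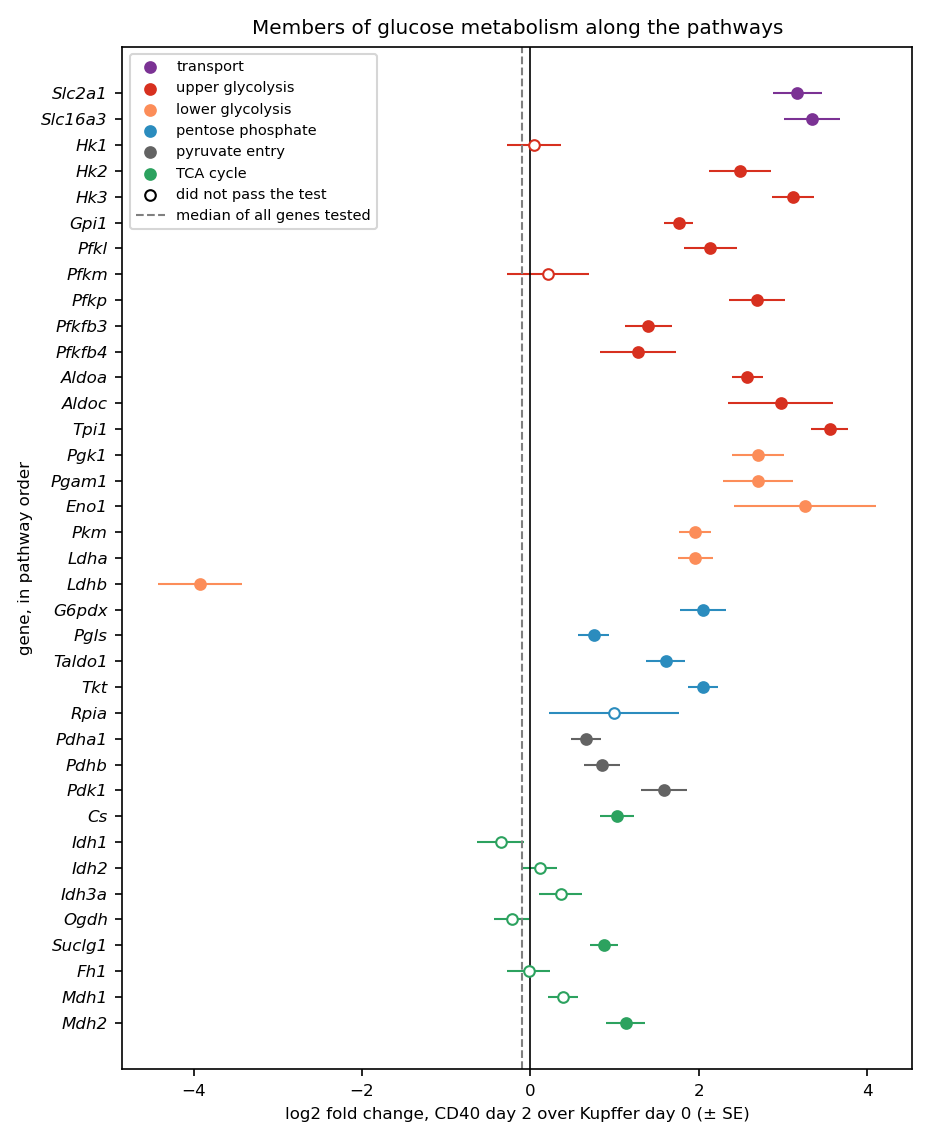
Log2 fold change of CD40 day 2 (4 libraries) over Kupffer day 0 (2 libraries) for the 37 tested members in pathway order; bars are the standard error, open circles did not pass the test, and the dashed line is the median of all genes tested (-0.10). Transport and glycolysis genes lie mostly above 1 on this scale, with Ldhb at -3.92, while 6 of the 9 TCA genes are open circles near 0.

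RefSeq promoters of build GRCm38.p6 were found for 38 of the 40 members, and the 250 bases upstream of each start were searched on both strands for ACGTG and GCGTG, the core of the element bound by hypoxia-inducible factors. A match was present in 48 of 58 member promoters (82.8%) and in 56.6% of the 8976 promoters of the genes tested, both sets with a median GC content of 60%. Matches were found for 24 of 27 members called higher and for 8 of 8 not called. At least 2 matches were present in 39.7% and 27.8%, and Ogdh, not called, supplies 6 of the 23 such member promoters. Over all 32851 promoters of the table, 38.6% held a match, and several promoters can belong to 1 gene. CACGTG is its own reverse complement and counts as a match on each strand. These counts are descriptions, and a match is not a site shown to be bound. The 4 promoters shown belong to the lactate dehydrogenase pair, which moved in opposite directions, and to Hk2 and Pgk1, members that rose, and none of the 4 stretches holds an annotated exon. Capitals mark the matches, and each stretch ends at the base before the start of transcription.
Ldha (chr7:46845554-46845803, plus strand): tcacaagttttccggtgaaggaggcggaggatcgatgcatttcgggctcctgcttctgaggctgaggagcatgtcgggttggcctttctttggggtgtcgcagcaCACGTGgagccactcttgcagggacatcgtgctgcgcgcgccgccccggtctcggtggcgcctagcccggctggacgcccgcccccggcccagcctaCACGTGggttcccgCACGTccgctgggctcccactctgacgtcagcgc
Ldhb (chr6:142507958-142508207, minus strand): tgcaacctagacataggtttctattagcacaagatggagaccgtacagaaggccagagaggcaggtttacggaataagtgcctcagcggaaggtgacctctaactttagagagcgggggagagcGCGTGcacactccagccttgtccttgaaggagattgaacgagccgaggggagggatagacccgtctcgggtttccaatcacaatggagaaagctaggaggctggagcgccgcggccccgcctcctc
Hk2 (chr6:82774455-82774704, minus strand): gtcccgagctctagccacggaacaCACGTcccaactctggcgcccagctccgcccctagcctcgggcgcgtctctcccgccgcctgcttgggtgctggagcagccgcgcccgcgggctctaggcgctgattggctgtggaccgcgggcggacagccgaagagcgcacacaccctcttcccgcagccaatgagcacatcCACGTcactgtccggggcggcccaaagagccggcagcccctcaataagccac
Pgk1 (chrX:106186850-106187099, plus strand): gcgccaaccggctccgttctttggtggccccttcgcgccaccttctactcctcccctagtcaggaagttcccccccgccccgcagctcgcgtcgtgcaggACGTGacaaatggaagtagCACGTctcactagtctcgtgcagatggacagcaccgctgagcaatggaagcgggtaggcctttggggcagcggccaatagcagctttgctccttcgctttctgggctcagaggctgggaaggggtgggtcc
This Ldha promoter has 5 matches in 3 separate stretches, and Ldhb has 1. A second listed Ldha promoter, not shown, also has 1. Hk2 and Pgk1 have 2 each, while the listed promoters of Tpi1 and Gpi1, which also rose, hold none, so a match in this window was not shared by all members that rose.

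Glucose enters most cells through facilitative transporters. Slc2a1 encodes GLUT1, the transporter of basal glucose uptake, and lies on chromosome 4, 119108711 to 119137983 (GRCm38). It was at 111, 79.2, 90.6 and 73.3 CPM in CD40 day 2 and 9.76 and 9.75 CPM in Kupffer day 0 (a log2 change of 3.17 ± 0.29 SE, adjusted p = 1.53e-05). The 4 CD40 libraries lie far above both Kupffer libraries, which are nearly equal in CPM but rest on 17 and 7 counts. Slc2a3, which encodes the high-affinity transporter GLUT3, had 16 counts over CD40 day 2 and 5 over Kupffer day 0, and was not tested. Its ratio was 1.39, with a 95% counting interval of 0.485 to 4.84 (exact, covering counting error only), and the groups overlapped. At the far end of the pathway, Slc16a3 encodes MCT4, a carrier that exports lactate, on chromosome 11, 120948480 to 120960868. It was at 474, 298, 349.6 and 300.2 CPM in CD40 day 2 and 25.3 and 48.7 CPM in Kupffer day 0 (a log2 change of 3.34 ± 0.33 SE, adjusted p = 2.56e-05), a 10.1-fold difference with no overlap. Of all genes tested, 66.6% had groups that did not overlap, and 29.7% did so with CD40 day 2 higher.

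Hexokinases trap glucose as glucose 6-phosphate, and 3 forms were measured, of which 2 rose. Hk1, the form found in most tissues, was at 65.5, 24, 53.3 and 42.9 CPM in CD40 day 2 and 43.1 and 50.1 CPM in Kupffer day 0 (a log2 change of 0.044 ± 0.32 SE, adjusted p = 0.924). Its CD40 values span both sides of the Kupffer values, and it did not pass the test. Hk2, the form that many cells induce with glycolysis, was at 32.8, 19.8, 26.9 and 29.2 CPM in CD40 day 2 and 5.17 and 4.18 CPM in Kupffer day 0 (a log2 change of 2.49 ± 0.37 SE, adjusted p = 0.000338). Hk3, a form typical of myeloid cells, on chromosome 13, 55005985 to 55021385, was at 195, 139, 188 and 156 CPM in CD40 day 2 and 17.8 and 22.3 CPM in Kupffer day 0 (a log2 change of 3.12 ± 0.25 SE, adjusted p = 7.05e-06). For Hk2 and Hk3 all CD40 libraries were above both Kupffer libraries, by 5.60-fold and 8.68-fold, and library b was the lowest of CD40 day 2 for all 3 forms.

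The next steps rearrange and phosphorylate the sugar and then split it. Gpi1, which turns glucose 6-phosphate into fructose 6-phosphate, was at 492, 416, 424 and 460.5 CPM in CD40 day 2 and 135 and 129.5 CPM in Kupffer day 0 (a log2 change of 1.76 ± 0.17 SE, adjusted p = 2.09e-05). Phosphofructokinase is the main point of control of glycolysis, and 2 of its 3 subunit genes rose. Pfkp, the platelet form, was at 269, 246, 169 and 136 CPM in CD40 day 2 and 31 and 32 CPM in Kupffer day 0 (a log2 change of 2.69 ± 0.33 SE, adjusted p = 0.000102). Pfkl, the liver form, was at 128, 83.5, 92.9 and 66.1 CPM in CD40 day 2 and 20.1 and 22.3 CPM in Kupffer day 0 (a log2 change of 2.14 ± 0.31 SE, adjusted p = 0.00031). Pfkm, the muscle form, had low counts, with 10.9, 7.07, 8.19 and 5.96 CPM in CD40 day 2 and 9.19 and 2.79 CPM in Kupffer day 0, and did not pass (a log2 change of 0.21 ± 0.49 SE, adjusted p = 0.747). Pfkp and Pfkl were thus higher without overlap, whereas the Pfkm values of both groups are mixed.

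Pfkfb3 and Pfkfb4 make and break fructose 2,6-bisphosphate, the activator of phosphofructokinase. Pfkfb3 was at 47.3, 66.5, 45.1 and 42.3 CPM in CD40 day 2 and 20.7 and 15.3 CPM in Kupffer day 0 (a log2 change of 1.40 ± 0.28 SE, adjusted p = 0.00214), with the highest value in library b. Pfkfb4 was at 20.9, 18.4, 21.8 and 15.5 CPM in CD40 day 2 and 4.59 and 13.9 CPM in Kupffer day 0 (a log2 change of 1.28 ± 0.45 SE, adjusted p = 0.035). The 2 Kupffer values of Pfkfb4 are far apart, and its call was lost without Kupffer day 0 a (log2 change 0.46, adjusted p = 0.461, from 0.0106 to 0.461 across the alternatives) and under 5 other settings of the 12 tried (CD40 day 2 a or c left out, library totals, DESeq2 and a stricter filter). Without Kupffer day 0 b the change was larger (2.05, adjusted p = 0.0106).

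Aldolase splits fructose 1,6-bisphosphate into trioses. Aldoa, the aldolase of muscle and most tissues, on chromosome 7, 126795234 to 126800751, was at 2696, 2208, 2264 and 2168 CPM in CD40 day 2 and 384 and 398 CPM in Kupffer day 0 (a log2 change of 2.58 ± 0.18 SE, adjusted p = 3.47e-06). Aldoc, best known from brain, was at 26.4, 26.9, 13.2 and 19.7 CPM in CD40 day 2 and 1.15 and 5.57 CPM in Kupffer day 0 (a log2 change of 2.97 ± 0.62 SE, adjusted p = 0.00267). Aldoa and Aldoc were higher in every CD40 library. For Aldoc the Kupffer values rest on 6 counts, and the call was lost without Kupffer day 0 a (1.87, adjusted p = 0.0748, from 5.82e-07 to 0.0748 across the alternatives), with 4.08 (adjusted p = 0.00399) without Kupffer day 0 b. Tpi1, which interconverts the 2 trioses, on chromosome 6, 124810586 to 124814296, was at 1456, 1069, 1229 and 1109 CPM in CD40 day 2 and 113 and 93.3 CPM in Kupffer day 0 (a log2 change of 3.55 ± 0.22 SE, adjusted p = 1.68e-06). At 11.7-fold, Tpi1 had the largest rise of the 37 members tested.

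**Figure D2:**
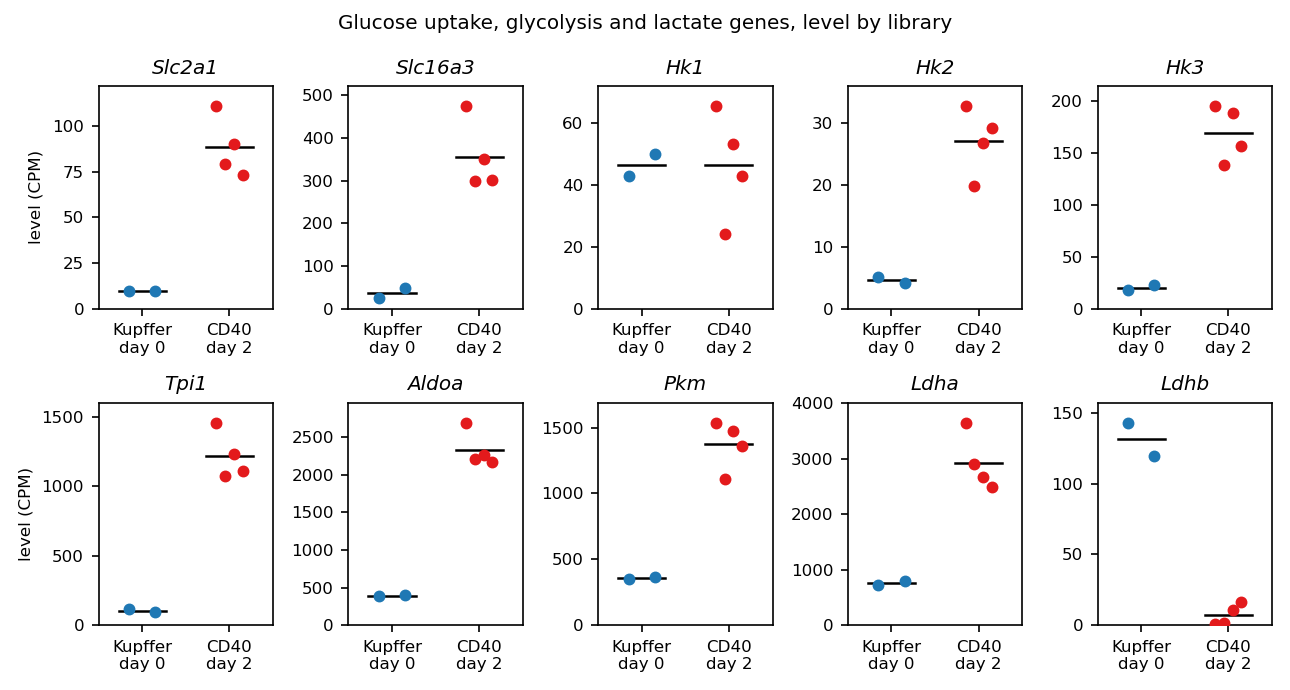
Level in CPM (linear axis from 0) of 10 transport and glycolysis members in each library; points are libraries and bars the group means. Hk1 is the one gene shown whose groups overlap, and Ldhb is the one shown that is lower in CD40 day 2.

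In the lower part of glycolysis Gapdh and Eno1 have much sequence in common with other genes, and their counts need that beside them. Gapdh, glyceraldehyde-3-phosphate dehydrogenase, is usually among the most abundant transcripts of a cell, yet it held 34 counts over CD40 day 2 and 2 over Kupffer day 0. Of the 75-base stretches in the last 500 bases of its transcript, 84% occur in another annotated gene, with 77 such genes, 75 of them pseudogenes. Its ratio was 7.36 (95% counting interval 1.89 to 63.2), and it was not tested. Eno1, enolase, has 62% of such stretches in common with Eno1b and a pseudogene. Its counts in CD40 day 2 were 11, 6, 23 and 11, against 0 and 2 in Kupffer day 0, a ratio of 11 (interval 2.90 to 93.6; a log2 change of 3.26 ± 0.84 SE, adjusted p = 0.00874). The Eno1 call was lost without Kupffer day 0 a (log2 change 1.64). Leaving out Kupffer day 0 b leaves 0 counts in Kupffer day 0, so the size of that change depends on the prior count. The levels of Gapdh and Eno1 in these data are therefore uncertain, and the part of shared sequence in their low counts was not tested. Among 8892 tested genes matched to the annotation, 3.33% had over 20% of these stretches in common with another gene, and of the 40 members Gapdh and Eno1 did.

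Pgk1, phosphoglycerate kinase, makes the first ATP of the pathway. It was at 86.5, 49.5, 77.4 and 83.4 CPM in CD40 day 2 and 10.9 and 12.5 CPM in Kupffer day 0 (a log2 change of 2.70 ± 0.31 SE, adjusted p = 6.79e-05), without overlap, and 1.88% of its stretches occur elsewhere. Pgam1, the mutase that follows, was at 22.8, 25.5, 25.5 and 20.8 CPM in CD40 day 2 and 4.59 and 1.39 CPM in Kupffer day 0 (a log2 change of 2.70 ± 0.41 SE, adjusted p = 0.000434), with 9 counts in Kupffer day 0, and its change was 3.98 without Kupffer day 0 a. Pkm, the pyruvate kinase of most tissues, on chromosome 9, 59656368 to 59679375, was at 1537, 1112, 1477 and 1364 CPM in CD40 day 2 and 347 and 362 CPM in Kupffer day 0 (a log2 change of 1.95 ± 0.19 SE, adjusted p = 2.34e-05). All 3 genes were higher in each CD40 library than in either Kupffer library, with library b lowest for Pgk1 and Pkm but not for Pgam1. The counts per gene do not separate the splice forms of Pkm.

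Lactate dehydrogenase is a tetramer of A and B subunits, of which the A form is associated with making lactate and the B form with using it. Ldha, on chromosome 7, 46841475 to 46855627, was at 3649, 2899, 2667 and 2497 CPM in CD40 day 2 and 713 and 798 CPM in Kupffer day 0 (a log2 change of 1.95 ± 0.21 SE, adjusted p = 4.06e-05). Ldhb, on chromosome 6, 142490249 to 142507957, was at 0.910, 1.41, 10.5 and 16.1 CPM in CD40 day 2 and 143 and 119.8 CPM in Kupffer day 0 (a log2 change of -3.92 ± 0.50 SE, adjusted p = 0.00013). The 2 subunit genes thus went in opposite directions, Ldha 3.88-fold up and Ldhb 15.1-fold down, each with no overlap. Ldhb was the one member called lower, in a table where 30.2% of genes were. Its CD40 values fall into a low pair, libraries a and b with 1 count each, and a higher pair, c and d with 23 and 27. The erythroid markers, in the order a to d, took 0.00803%, 0.00675%, 0.0273% and 0.0746% of counts, against 0.0201% and 0.00697% in Kupffer day 0. As a list, the Kupffer cell markers took 0.0773%, 0.0435%, 0.103% and 0.106% in CD40 day 2, but single markers differed in direction. The broader macrophage genes Csf1r (634, 290.0, 807 and 822 CPM) and Adgre1 (55.5, 38.2, 144 and 160.2 CPM) were higher in c and d. So were Slc40a1 (10.01, 12.7, 17.8 and 28.6 CPM), Vsig4 and C6. Clec4f (19.1, 21.2, 14.6 and 13.7 CPM), Cd5l (20.02, 25.5, 17.3 and 16.1 CPM), Timd4, Folr2 and Id3 were lower there. Marco, Cd163, Fcna and Clec1b were mixed. The part of any of these cells in the Ldhb values was not tested. Of the Ldhb stretches, 17.1% occur in the pseudogene Gm5514, whose row held 24 counts in Kupffer day 0 and 6 in CD40 day 2.

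The oxidative branch of the pentose phosphate pathway makes NADPH. Its first enzyme, glucose-6-phosphate dehydrogenase, is encoded by G6pdx on chromosome X, 74409483 to 74429194. G6pdx was at 78.3, 56.6, 97.9 and 88.8 CPM in CD40 day 2 and 18.9 and 20.9 CPM in Kupffer day 0 (a log2 change of 2.05 ± 0.28 SE, adjusted p = 0.000195). Pgls, the lactonase that follows, was at 181, 238, 209.8 and 211 CPM in CD40 day 2 and 136 and 111 CPM in Kupffer day 0 (a log2 change of 0.75 ± 0.18 SE, adjusted p = 0.00624), a small difference whose call was lost without Kupffer day 0 b (0.62, adjusted p = 0.0739, from 0.00223 to 0.0739 across the alternatives). Both were higher in every CD40 library, G6pdx by 4.14-fold and Pgls by 1.68-fold. Pgd, the dehydrogenase that releases ribulose 5-phosphate, is listed at 0 in all 6 libraries, although none of the 75-base stretches near its end occur in another gene. A count of 0 allows up to 0.528 CPM in CD40 day 2 and 1.22 CPM in Kupffer day 0 (3 counts over the group, counting error only). Whether the zeros reflect the cells or the counting was not tested.

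The non-oxidative branch shuttles carbon between pentoses and glycolytic sugars. Taldo1, transaldolase, on chromosome 7, 141392199 to 141402968, was at 836, 1193, 785 and 773 CPM in CD40 day 2 and 264 and 326 CPM in Kupffer day 0 (a log2 change of 1.61 ± 0.23 SE, adjusted p = 0.000271). Tkt, transketolase, was at 198, 177, 193 and 181 CPM in CD40 day 2 and 43.6 and 47.4 CPM in Kupffer day 0 (a log2 change of 2.05 ± 0.18 SE, adjusted p = 1.28e-05). Both were above the Kupffer values in each library, Tkt with little spread and Taldo1 with library b well above the other 3. Rpia, the isomerase that makes ribose 5-phosphate, was at 6.37, 12.7, 5.46 and 18.5 CPM in CD40 day 2 and 8.04 and 0 CPM in Kupffer day 0, and did not pass the test (a log2 change of 0.997 ± 0.77 SE, adjusted p = 0.3), with overlap. Its Kupffer counts all lie in library a, and leaving a out leaves 0 counts in Kupffer day 0. Without b the log2 change was 0.40, and Rpia was not called in either case.

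Pyruvate reaches the TCA cycle through the pyruvate dehydrogenase complex, which kinases of the Pdk family switch off. Pdha1, of the E1 alpha subunit, was at 114, 124, 105 and 112 CPM in CD40 day 2 and 76.4 and 65.5 CPM in Kupffer day 0 (a log2 change of 0.66 ± 0.18 SE, adjusted p = 0.0104). Pdhb, of the E1 beta subunit, was at 107, 103, 88.8 and 84 CPM in CD40 day 2 and 59.1 and 44.6 CPM in Kupffer day 0 (a log2 change of 0.85 ± 0.21 SE, adjusted p = 0.0066). The 2 subunit genes were higher by similar amounts, 1.59-fold and 1.80-fold, and both calls were lost without Kupffer day 0 b (adjusted p = 0.0938, from 0.00568 to 0.0938 across the alternatives, and adjusted p = 0.0732, from 0.0042 to 0.0732 across the alternatives). Pdk1, a kinase of the complex and a known target of hypoxia-inducible factors, was at 36.4, 31.1, 40.5 and 35.1 CPM in CD40 day 2 and 10.9 and 13.9 CPM in Kupffer day 0 (a log2 change of 1.59 ± 0.27 SE, adjusted p = 0.00084), 3.004-fold higher.

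In the TCA cycle itself 3 of the 9 members were higher. Cs, citrate synthase, which condenses acetyl-CoA with oxaloacetate, was at 190.2, 236, 190.3 and 163 CPM in CD40 day 2 and 89.6 and 102 CPM in Kupffer day 0 (a log2 change of 1.03 ± 0.20 SE, adjusted p = 0.0017). Suclg1, a subunit of succinate-CoA ligase, was at 199, 224, 247 and 222 CPM in CD40 day 2 and 123 and 119.8 CPM in Kupffer day 0 (a log2 change of 0.87 ± 0.17 SE, adjusted p = 0.00162). Mdh2, the mitochondrial malate dehydrogenase, on chromosome 5, 135778480 to 135790398, was at 875, 1024, 683 and 606 CPM in CD40 day 2 and 347 and 379 CPM in Kupffer day 0 (a log2 change of 1.13 ± 0.23 SE, adjusted p = 0.00232). These 3 were higher in every CD40 library, by 1.83-fold for Suclg1 to 2.19-fold for Mdh2.

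The other 6 members of the cycle were not called. Idh3a, of the NAD-linked isocitrate dehydrogenase, was at 38.2, 31.1, 30.04 and 29.8 CPM in CD40 day 2 and 28.7 and 19.5 CPM in Kupffer day 0 (a log2 change of 0.36 ± 0.26 SE, adjusted p = 0.264). Idh2, the mitochondrial NADP-linked enzyme, was at 61.9, 84.9, 65.1 and 77.4 CPM in CD40 day 2 and 72.9 and 58.5 CPM in Kupffer day 0 (a log2 change of 0.11 ± 0.21 SE, adjusted p = 0.681). Its cytosolic counterpart Idh1 was at 49.2, 31.1, 60.1 and 70.3 CPM in CD40 day 2 and 74.6 and 62.7 CPM in Kupffer day 0 (a log2 change of -0.35 ± 0.28 SE, adjusted p = 0.307). Idh3a did not overlap between the groups but missed the threshold, and Idh1 and Idh2 overlapped. Ogdh, of the oxoglutarate dehydrogenase complex, was at 43.7, 34, 41.9 and 45.9 CPM in CD40 day 2 and 44.8 and 54.3 CPM in Kupffer day 0 (a log2 change of -0.22 ± 0.21 SE, adjusted p = 0.395). Fh1, fumarase, was at 100.1, 144, 72.4 and 95.9 CPM in CD40 day 2 and 111 and 93.3 CPM in Kupffer day 0 (a log2 change of -0.021 ± 0.26 SE, adjusted p = 0.955). Mdh1, the cytosolic malate dehydrogenase, was at 196, 189.6, 168 and 153 CPM in CD40 day 2 and 143 and 125 CPM in Kupffer day 0 and missed the threshold (a log2 change of 0.39 ± 0.18 SE, adjusted p = 0.0903) although its groups did not overlap. Missing the threshold does not show that these 6 genes were equal in the 2 groups. Library b held the highest CD40 value of Cs, Mdh2, Fh1, Idh2 and Taldo1 and the lowest of Idh1 and Ogdh. In that library the dendritic cell markers took 0.100% of counts and the cycling cell markers 0.0492%, against 0.0615% to 0.0699% and 0.0140% to 0.0286% in the other 3, and their part in these values was not tested.

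**Figure D3:**
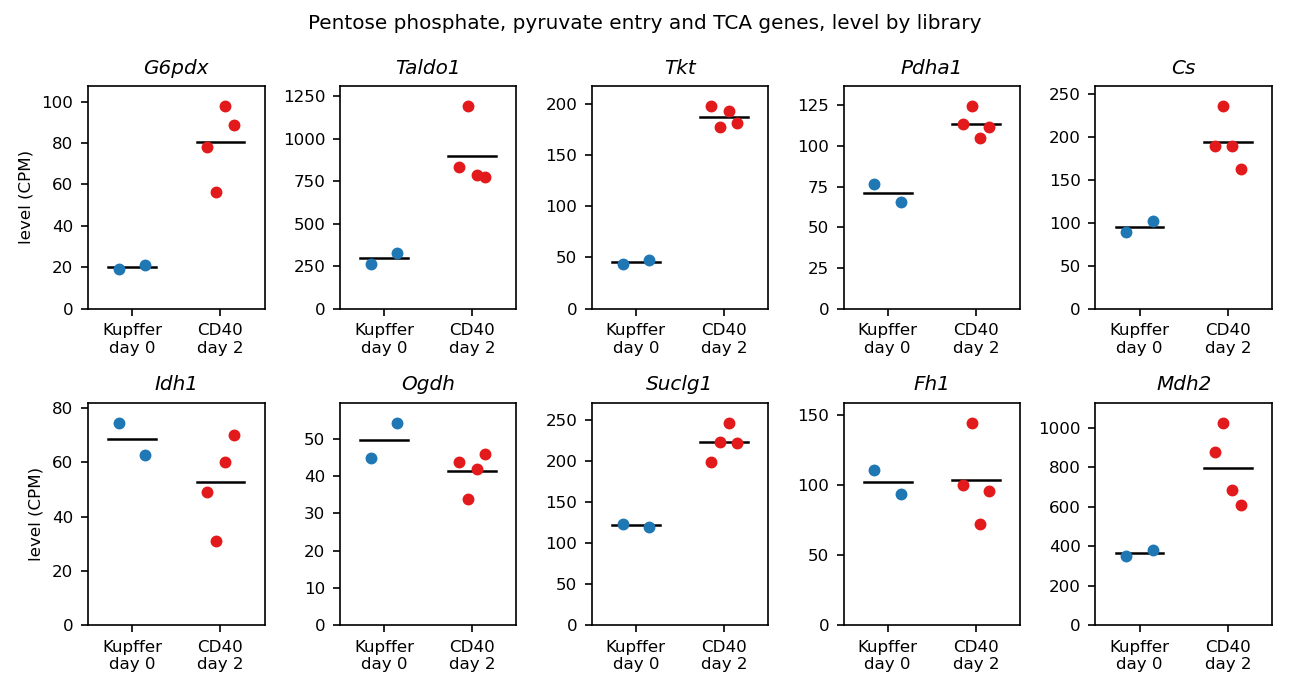
Level in CPM (linear axis from 0) of 10 members of the pentose phosphate pathway, pyruvate entry and the TCA cycle in each library; points are libraries and bars the group means. G6pdx, Taldo1, Tkt, Pdha1, Cs, Suclg1 and Mdh2 do not overlap between the groups, while Idh1, Ogdh and Fh1 do.

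The forms of a step were next set against each other within each library, since such a ratio of counts does not depend on how libraries are scaled. Where a form has few counts, the ratio still depends on depth and on the amount added to each count. That holds for Ldhb, with 1 count each in CD40 day 2 a and b, and for Slc2a3, with 1 to 8 counts per library. For 10 pairs, the log2 ratio (0.5 added to each count) was compared by a two-sided exact permutation test over all 15 assignments of the 6 libraries, which cannot go below p = 0.0667. That smallest value was reached by 6 pairs, with an adjusted p of 0.111, so no pair passed 0.05. Ldha over Ldhb had a log2 ratio of 9.25 ± 1.96 (SD, n = 4) in CD40 day 2 and 2.52 ± 0.29 (SD, n = 2) in Kupffer day 0, with CD40 values from 7.25 in library d to 11.38 in library a. Hk3 over Hk1 was at 1.93 ± 0.39 (SD, n = 4) in CD40 day 2 and -1.20 ± 0.082 (SD, n = 2) in Kupffer day 0, and Hk2 over Hk1 at -0.70 ± 0.35 (SD, n = 4) in CD40 day 2 and -3.19 ± 0.28 (SD, n = 2) in Kupffer day 0. In these 3 pairs every CD40 library lay above both Kupffer libraries. Pfkp over Pfkm was at 4.58 ± 0.29 (SD, n = 4) in CD40 day 2 and 2.48 ± 1.07 (SD, n = 2) in Kupffer day 0, and Pfkp over Pfkl at 1.13 ± 0.30 (SD, n = 4) in CD40 day 2 and 0.56 ± 0.077 (SD, n = 2) in Kupffer day 0. The Pfkp over Pfkm difference, 2.10, was 1.35 without Kupffer day 0 a and 2.86 without b. Mdh1 over Mdh2 was at -2.15 ± 0.20 (SD, n = 4) in CD40 day 2 and -1.43 ± 0.22 (SD, n = 2) in Kupffer day 0. In all 6 pairs the 2 groups did not overlap, each at the smallest p the design allows and none past the adjusted threshold.

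For the remaining pairs the difference was smaller beside the spread. Aldoa over Aldoc was at 6.78 ± 0.45 (SD, n = 4) in CD40 day 2 and 7.03 ± 1.47 (SD, n = 2) in Kupffer day 0 (exact permutation p = 0.8). Pfkfb4 over Pfkfb3 was at -1.36 ± 0.34 (SD, n = 4) in CD40 day 2 and -1.12 ± 1.39 (SD, n = 2) in Kupffer day 0 (exact permutation p = 0.8). In both pairs the 2 Kupffer libraries enclose all CD40 values. Slc2a3 over Slc2a1 was at -4.92 ± 1.57 (SD, n = 4) in CD40 day 2 and -2.14 ± 1.99 (SD, n = 2) in Kupffer day 0 (exact permutation p = 0.133), and Idh1 over Idh2 at -0.50 ± 0.62 (SD, n = 4) in CD40 day 2 and 0.066 ± 0.046 (SD, n = 2) in Kupffer day 0 (exact permutation p = 0.333), the latter with library b far below the other 3. In these last 2 pairs all CD40 values were below both Kupffer values, so a lack of overlap was not particular to the pairs above. The Slc2a3 over Slc2a1 difference, -2.78, was -4.19 without Kupffer day 0 a and -1.38 without b.

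**Figure D4:**
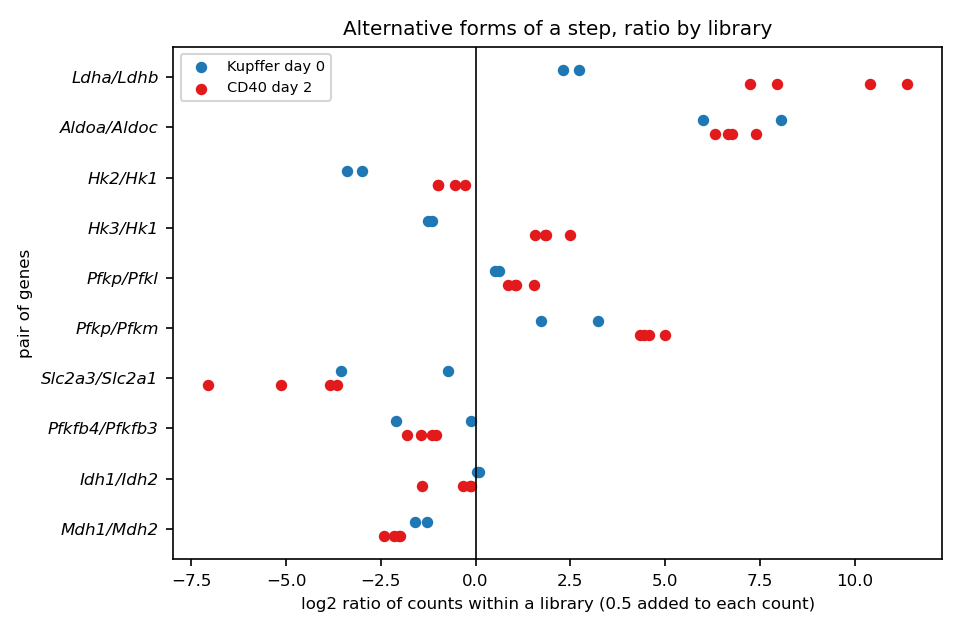
Log2 ratio of the counts of 2 forms of a step within each library (0.5 added to each count), for 10 pairs; each point is a library, blue for Kupffer day 0 and red for CD40 day 2. The Ldha over Ldhb ratio has the widest gap between the groups, and the Kupffer points of Aldoa over Aldoc and Pfkfb4 over Pfkfb3 enclose the CD40 points.

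Other genes of these pathways, from 8 lists of 11 to 25 symbols, were mixed in direction. Their counts stand beside 23.2% higher and 30.2% lower over all genes tested. Of 3 further transporters tested, 1 was higher and 1 lower. Slc2a6, a transporter gene induced in activated macrophages, was at 413 ± 133 against 18.1 ± 1.99 CPM (CD40 day 2 against Kupffer day 0, mean ± SD, n = 4 and 2, as for the genes that follow; log2 change 4.48, adjusted p = 1.04e-05). Slc2a8, of an intracellular transporter, was at 5.32 ± 3.80 against 54.8 ± 4.57 CPM (log2 change -3.13, adjusted p = 0.00013). Further glycolytic enzymes also went both ways. Pgp, a phosphoglycolate phosphatase, was at 74 ± 9.33 against 40.9 ± 14.5 CPM (log2 change 0.79, adjusted p = 0.021), a call lost under library totals and without Kupffer day 0 b (from 0.013 to 0.165 across the alternatives). The calls of Tigar, a bisphosphatase that opposes glycolysis (9.93 ± 2.32 against 2.01 ± 2.84 CPM), Adpgk, an ADP-dependent glucokinase (32 ± 14 against 55.5 ± 2.21 CPM), and Bpgm, which makes 2,3-bisphosphoglycerate (5.68 ± 2.19 against 12.6 ± 4.07 CPM), were near the threshold. They were lost under 4, 8 and 8 alternatives (from 0.018 to 0.135 across the alternatives for Tigar, 0.00187 to 0.168 for Adpgk and 0.0156 to 0.46 for Bpgm). These losses include Kupffer day 0 b left out for all 3 genes, Kupffer day 0 a left out for Adpgk and Bpgm, CD40 day 2 a for all 3, b for Bpgm, c for Adpgk and Bpgm, and d for Adpgk. Tigar rests on 7 Kupffer counts, all in library a, and leaving that library out leaves 0 counts in Kupffer day 0.

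Of 14 tested genes of glycogen, gluconeogenesis and glycerol phosphate, 4 rose and 3 fell (median -0.27). Over all genes tested, 23.2% were called higher and 30.2% lower. Gpd2, the mitochondrial glycerol phosphate dehydrogenase, was at 49.4 ± 7.18 against 10.9 ± 1.63 CPM (log2 change 2.14, adjusted p = 0.000133), Gys1, the glycogen synthase outside liver, at 17.4 ± 1.68 against 2.66 ± 2.14 CPM (log2 change 2.97, adjusted p = 0.00084), and Pygl, a glycogen phosphorylase, at 67.8 ± 22.7 against 24.5 ± 4.67 CPM (log2 change 1.54, adjusted p = 0.00489). The Gys1 change was 2.01 without Kupffer day 0 a and 3.81 without Kupffer day 0 b, and Pygl was not called without Kupffer day 0 a (adjusted p = 0.0939, from 1.72e-06 to 0.0939 across the alternatives). Pck1, the cytosolic enzyme of gluconeogenesis, had 2 counts in CD40 day 2 and 36 in Kupffer day 0, a ratio of 41.6 in favour of Kupffer day 0 (95% counting interval 10.7 to 356; adjusted p = 0.000244). Pck1 is also in the hepatocyte marker list, whose share was higher in Kupffer day 0, and the part of hepatocyte RNA in its value was not tested. Pgm1, a phosphoglucomutase, was at 23.5 ± 5.37 against 61.4 ± 0.110 CPM (log2 change -1.42, adjusted p = 0.000837), and Pck2 at 12.7 ± 3.17 against 23.4 ± 11.5 CPM (log2 change -0.92, adjusted p = 0.0497), with overlap and a call lost under 7 of 12 alternatives (from 0.0252 to 0.758 across the alternatives), among them Kupffer day 0 a left out (-0.22) and CD40 day 2 a, b or c left out. Of 6 further pentose and ribose phosphate genes tested, 1 was higher, the ribokinase gene Rbks (39.6 ± 5.35 against 8.48 ± 0.181 CPM; log2 change 2.19, adjusted p = 0.000179), and the other 5 did not pass.

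The kinase genes around pyruvate entry went both ways. Pdk3 was at 216 ± 39.2 against 19 ± 3.20 CPM (log2 change 3.47, adjusted p = 5.55e-06), while Pdk4, the form tied to fasting and fat oxidation, was at 1.04 ± 0.785 against 34.9 ± 0.145 CPM (log2 change -5.16, adjusted p = 2.46e-05), and Pdk2 at 3.78 ± 1.53 against 11.6 ± 0.647 CPM (log2 change -1.59, adjusted p = 0.0149). The Pdk2 call was lost without either Kupffer library and with DESeq2 (from 0.0095 to 0.159 across the alternatives). With Pdk1 among the members, 2 of the 4 kinase genes were thus higher and 2 lower. The mitochondrial pyruvate carrier genes Mpc1 (40.3 ± 4.54 against 17 ± 0.362 CPM; log2 change 1.22, adjusted p = 0.00213) and Mpc2 (308 ± 25 against 177 ± 0.431 CPM; log2 change 0.80, adjusted p = 0.00207) were higher. In all, 3 of 8 tested genes of this list rose and 2 fell, beside 23.2% and 30.2% of all genes tested.

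Of 21 further TCA and linked genes tested, 7 were higher and 2 lower, beside 23.2% and 30.2% of all genes tested. Acod1, which diverts cis-aconitate to itaconate in activated macrophages, was at 271 ± 88.8 against 27.9 ± 7.80 CPM (log2 change 3.34, adjusted p = 6.89e-05). Sdhb and Sdhd, of succinate dehydrogenase, were at 590.4 ± 24.8 against 174 ± 1.31 CPM (log2 change 1.76, adjusted p = 1.4e-05) and 273 ± 24.6 against 113 ± 16.8 CPM (log2 change 1.28, adjusted p = 0.000254). Suclg2, the partner subunit of Suclg1 in the GTP-forming ligase, was lower, at 7.41 ± 1.33 against 21.6 ± 6.94 CPM (log2 change -1.42, adjusted p = 0.00632), a call lost without Kupffer day 0 b (adjusted p = 0.0694, from 0.00323 to 0.0694 across the alternatives). Me2, a mitochondrial malic enzyme, was at 67.5 ± 4.66 against 93.9 ± 1.20 CPM (log2 change -0.47, adjusted p = 0.0392), lost under 10 of 12 alternatives, including each of the 6 libraries left out (from 0.0117 to 0.198 across the alternatives).

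The factors that drive glycolytic transcription were given from a list of 14, of which 12 were tested, 3 higher and 3 lower. These counts are near the shares over all genes tested, 23.2% higher and 30.2% lower. Hif1a, the hypoxia-inducible factor of activated myeloid cells, was at 152, 175, 179 and 124 CPM in CD40 day 2 and 56.8 and 61.3 CPM in Kupffer day 0 (a log2 change of 1.42 ± 0.21 SE, adjusted p = 0.000386). Epas1, which encodes the related HIF-2 alpha and is strong in endothelium, was at 7.28, 4.24, 5.01 and 7.15 CPM in CD40 day 2 and 362 and 383 CPM in Kupffer day 0 (a log2 change of -5.93 ± 0.21 SE, adjusted p = 1.6e-07). Each was without overlap, in opposite directions. All 12 endothelial markers were called lower, as Epas1 was, beside 30.2% of all genes tested. So were 11 of 14 Kupffer cell markers, 8 of 8 tested stellate cell markers and 8 of 10 tested hepatocyte markers. The part of any of these cells in the Epas1 values was not tested. Vhl, which marks both factors for degradation (71.3 ± 14 against 30.6 ± 7.85 CPM; log2 change 1.15, adjusted p = 0.00464), and Mlx, the partner of the glucose-sensing factors (93.9 ± 7.03 against 45.7 ± 6.22 CPM; log2 change 1.06, adjusted p = 0.0012), were higher. Mlxip, one of those glucose-sensing factors, was at 11.7 ± 2.90 against 52.4 ± 2.68 CPM (log2 change -2.08, adjusted p = 0.000112). Txnip, their target and a brake on glucose uptake, was at 73.7, 60.8, 68.7 and 66.1 CPM in CD40 day 2 and 574 and 447 CPM in Kupffer day 0 (a log2 change of -2.92 ± 0.17 SE, adjusted p = 1.17e-06), with all CD40 values below both Kupffer values.

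Known targets of hypoxia-inducible factors outside glycolysis were split, with 5 of 15 tested higher and 5 lower (median -0.27). Bnip3, a mitophagy receptor, was at 182 ± 51 against 30.2 ± 4.55 CPM (log2 change 2.62, adjusted p = 6.41e-05), Ankrd37 at 104 ± 32.7 against 12.8 ± 3.52 CPM (log2 change 3.08, adjusted p = 9.88e-05), and Higd1a, a mitochondrial protein induced by hypoxia, at 163 ± 28.8 against 51.4 ± 3.69 CPM (log2 change 1.65, adjusted p = 0.000173). Adm, the vasoactive peptide adrenomedullin, was lower, at 1.55 ± 1.52 against 65.9 ± 1.39 CPM (log2 change -5.29, adjusted p = 5.81e-06), as were Ndrg1 (34.3 ± 8.28 against 97.2 ± 27.9 CPM; log2 change -1.47, adjusted p = 0.000823) and Mxi1 (12.1 ± 2.10 against 24.6 ± 3.32 CPM; log2 change -1.02, adjusted p = 0.0134). The Mxi1 call was lost without Kupffer day 0 a and with DESeq2 (from 0.00637 to 0.164 across the alternatives). The share of higher calls, 5 of 15, stands beside 23.2% over all genes tested, and that of lower calls, also 5 of 15, beside 30.2%.

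**Figure D5:**
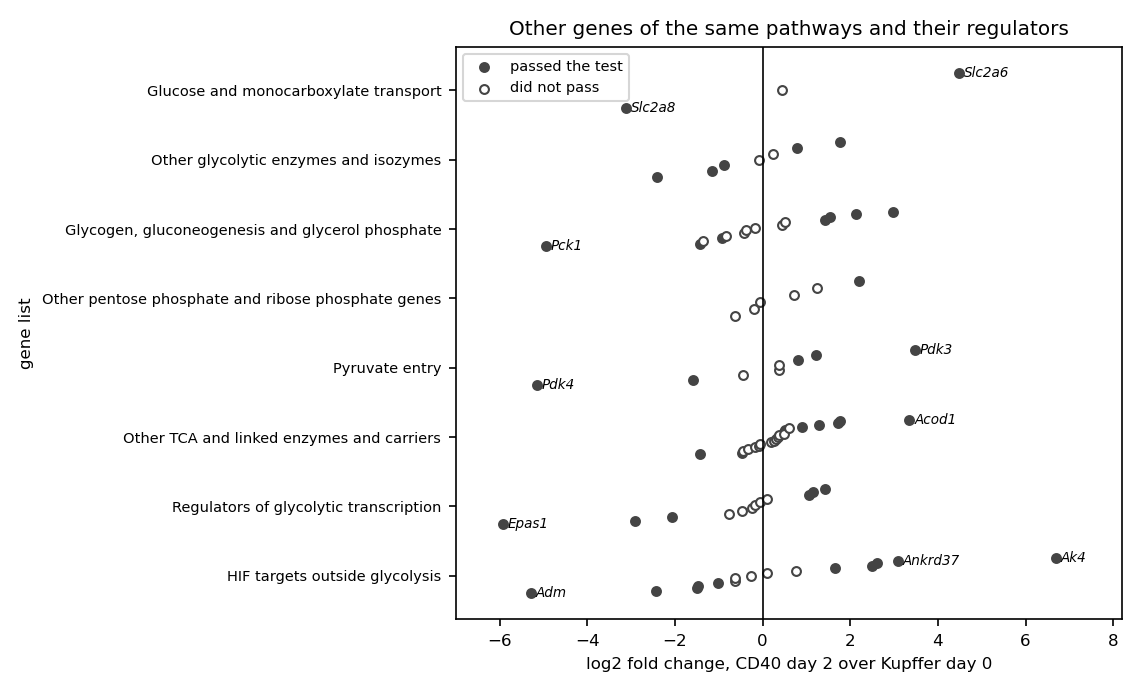
Log2 fold change of CD40 day 2 over Kupffer day 0 for the tested genes of 8 further lists, 1 list per row, with filled points past the test and open points not; genes beyond 3 in either direction are named. Ak4 had 55 counts in CD40 day 2 and 0 in Kupffer day 0, so where its point lies depends on the prior count. Each list except that of other pentose phosphate genes has filled points on both sides of 0.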

How the data were processed

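Bulk 3′ poly(A) libraries with barcodes and molecular identifiers were sequenced on a NextSeq 500, per the labels' protocols. The authors deposited 1 table of raw counts, integers for each gene symbol. GRCm38.p6 and DESeq2 1.22.2 are named in the submitters' processing notes. Not given in the sources used here are the aligner, the counter, the use of strand, and whether reads or identifiers were counted.

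CD40 day 2 and Kupffer day 0 were compared on their 6 libraries with edgeR 4.0.16 (R 4.3.3), using TMM scaling, filterByExpr with default settings and the quasi-likelihood test, two-sided, with Benjamini-Hochberg adjustment over 9852 genes. The script was tested on simulated data. The threshold was an adjusted p of 0.05. The standard error is the log2 fold change over the square root of F. The quoted p-values of genes are adjusted. Ratios of 2 genes were tested by exact permutation. Ratio alternatives were a prior of 2 counts and left-out libraries. Other alternatives were 3 other scalings, DESeq2 1.42.0, 2 other filters and leaving out each library. Positions and shared 75-base stretches come from GENCODE vM21 (GRCm38), and promoters from RefSeq (GRCm38.p6).

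The members and lists were chosen with earlier results of these data known. All members are named. From each further list, up to 3 genes in each direction with the smallest adjusted p are named, except 1 that is not reported here. Marker lists for cholangiocytes, neutrophils, erythroid, T, NK and B cells each took at most 0.322% of a library's counts. In Kupffer day 0 a and b the neutrophil markers took 0.0972% and 0.322%, and the B cell markers 0.00558% and 0.106%. The part of this difference in results without a Kupffer library was not tested.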

Additional observations from a re-analysis of the deposited data

Results flagged for a closer look

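Among the 4 CD40 day 2 libraries, a lone library stood apart for 3 of the 49 values examined (Dixon's test at the 95% level, which chance passes for about 1 group in 20). Taldo1, transaldolase, was at 1193 CPM in library b, against 773 to 836 CPM in the other 3. Idh3a was at 38.2 CPM in library a, against 29.8 to 31.1 CPM. The log2 ratio of Idh1 over Idh2 was -1.43 in library b, against -0.33 to -0.12.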

How the results depend on the processing

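No paired analysis was possible because the columns carry no replicate numbers. Over 12 alternatives, 416 of 441 values of tested members kept their direction and their side of the threshold, 11 were no longer called and 14 changed sign, the last all in genes not called. Between 24 and 28 members were called higher and 1 lower in each alternative. Leaving out single libraries gave 24 to 27 members higher, 14 to 18 transport and glycolysis members higher and 3 TCA members higher. Over all genes it gave 1406 to 2551 higher and 1800 to 2963 lower, the lowest without Kupffer day 0 a, and the cause was not tested. Log2 changes near 0 turned sign. With all libraries they did so for Hk1 with library totals (-0.13) and the stricter filter (-0.084), for Idh2 with the same pair (-0.057 and -0.019), and for Fh1 with RLE, upper-quartile scaling and DESeq2 (0.018, 0.059 and 0.033). With a library left out, Hk1 ran from -0.13 to 0.28, Pfkm from -0.20 to 1.49, Idh2 from -0.018 to 0.29 and Fh1 from -0.15 to 0.13, and the cause was not tested. The pair ratios kept their sign in 67 of 70 alternatives. The difference of Aldoa over Aldoc was 0.22 with a prior of 2 counts, and -1.28 to 0.79 with a library left out, and that of Pfkfb4 over Pfkfb3 was -1.23 to 0.74. Scaling by library totals alone moved the median of all genes by -0.17, and then 35.9% of all calls were higher, against 43.5%; 26 members were called higher. Slc2a3, Gapdh, Eno1, Pfkm, Rpia and Pgd rest on at most 73 counts each over the 6 libraries, which limits their precision.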
